A study of Mus musculus with 4 samples.

Results

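The cells described here are the 74 cells that the authors named endothelial cells 2, of 1191 cells in the deposited annotation. They were taken by that name alone. The word venous is not part of that name and was set against Selp, Sele, Vwf and Ackr1. All 4 genes had their highest mean level here among the 13 annotated populations. The population was formed from these same counts, so this describes it and is no test. The cells come from Achilles tendons of male C57Bl/6 mice aged 6 weeks, profiled with 10x Genomics 3-prime version 3 chemistry as 4 libraries, which form 1 group with no treatment named in the labels. Whether each library holds 1 mouse or several is not given in the sources used here, so the spread between libraries may be partly technical. The main comparison was with the 190 endothelial cells 1. The 36 endothelial cells 3 served for a second one.

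Venules collect blood from capillaries and are the vessels where leukocytes leave the blood. Their endothelium stores P-selectin (Selp) and von Willebrand factor (Vwf) in Weibel-Palade bodies, granules that fuse with the cell surface on stimulation, and it makes E-selectin (Sele) when cytokines switch the gene on. Ackr1, also called DARC, is a chemokine-binding receptor that does not signal through G proteins and marks venules. The transcription factor Nr2f2 (COUP-TFII) maintains venous identity, and Notch signalling favours arterial identity. Capillary endothelium in turn takes up fatty acids and holds lipoprotein lipase at its surface.

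Libraries 1, 2, 3 and 4 held 30, 25, 11 and 8 of the cells. That was 5.17%, 10.2%, 4.30% and 7.34% of each library, a mean of 6.74% ± 2.61 (SD, n = 4). Of the cells in endothelial populations 1 and 2 together they made up 24.2%, 35.2%, 28.2% and 26.7%, a mean of 28.6% ± 4.73 (SD, n = 4). With the annotated red blood cells left out, the shares of each library were 5.70%, 13.7%, 4.55% and 8.42%. Their mean was 8.08% ± 4.06 (SD, n = 4), and no intervals were computed for them. Library 2 had the highest share on each of these scales. The exact 95% binomial intervals of the first share, 3.52% to 7.30% in library 1 and 6.69% to 14.6% in library 2, overlapped. Their median depth was 8322.5 unique molecular identifiers (UMIs, counts of single captured transcripts) and 2947 genes, against 7343 UMIs in endothelial cells 1. By library it was 8813, 9865, 5280 and 8519 UMIs, so the 11 cells of library 3 were the shallowest. No cell barcode was shared between libraries.

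The promoters of Selp, Sele and Ackr1, 3 of the 4 venous genes named above, are shown because these genes set the population apart. Selp and Sele lie near each other on mouse chromosome 1, Sele at chr1:164039614-164058487 and Selp at chr1:164115264-164150026 (RefSeq, build GRCm38.p6). Ackr1 lies further along the same chromosome at chr1:173331886-173333503, and Vwf at chr6:125552948-125686679. Each sequence runs 5′ to 3′ over 250 bases before and 50 bases after the transcription start, on the gene's own strand, for Selp chr1:164115014-164115313 (+), for Sele chr1:164047984-164048283 (+) and for Ackr1 chr1:173333454-173333753 (-). The Sele start used lies inside the RefSeq span of the gene, at the first base of its GENCODE vM21 model. Capitals mark AGGAAG, a core that ETS family factors can bind, its reverse complement CTTCCT, and the TATA box TATAAA.
Selp: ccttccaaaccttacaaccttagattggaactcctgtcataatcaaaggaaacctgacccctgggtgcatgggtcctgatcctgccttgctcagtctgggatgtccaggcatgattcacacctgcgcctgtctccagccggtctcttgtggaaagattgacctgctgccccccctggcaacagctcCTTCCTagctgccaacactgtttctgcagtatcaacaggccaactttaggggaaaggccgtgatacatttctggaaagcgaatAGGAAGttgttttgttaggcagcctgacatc
Sele: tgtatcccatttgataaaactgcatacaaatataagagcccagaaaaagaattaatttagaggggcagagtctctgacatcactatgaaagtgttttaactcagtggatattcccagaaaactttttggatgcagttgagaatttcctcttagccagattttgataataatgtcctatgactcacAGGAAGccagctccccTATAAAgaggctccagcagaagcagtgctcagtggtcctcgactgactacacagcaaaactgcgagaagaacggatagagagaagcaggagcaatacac
Ackr1: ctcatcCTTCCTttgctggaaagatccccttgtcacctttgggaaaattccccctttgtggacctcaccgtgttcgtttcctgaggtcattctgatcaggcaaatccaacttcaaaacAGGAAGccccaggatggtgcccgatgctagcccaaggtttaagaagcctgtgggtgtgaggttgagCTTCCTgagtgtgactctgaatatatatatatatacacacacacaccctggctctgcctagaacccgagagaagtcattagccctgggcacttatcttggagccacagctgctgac
Selp had 2 ETS cores, Sele 1 and Ackr1 3, and 1 core in each stood 64 to 66 bases before the start. Sele alone of the 3 had a TATA box, 49 bases before the start. Searched on both strands, the ETS core was in 35.4% and the TATA box in 13.6% of 32851 RefSeq promoters of this length. Among the 15 genes with the largest excess over endothelial cells 1 (named below), 13 had a promoter entry and 4 of those had the core. A 10-base NF-kB consensus was in none of the 13, against 4.51% of all promoters. At that share, none among 13 does not show a lack of sites, and variants of the consensus were not searched. Vwf and Vcam1 had no entry.

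Selp separated the population almost entirely. Levels are given as CPM, the UMIs of a gene divided by all UMIs in the summed cells of a population and library and scaled to a total of 1000000. Selp stood at 749, 857, 1430 and 365 CPM in libraries 1 to 4, against 6.92, 18.7, 5.28 and 0 in endothelial cells 1. Every library of the first group was thus far above every library of the second, and the mean was 110-fold that of the next population. Of all 688 Selp UMIs in the 1191 cells, 97.5% came from these 74 cells. Sele stood at 259, 239, 84.1 and 108 CPM against 7.91, 0, 0 and 0. Its mean of 172 ± 89.1 (SD, n = 4) was 87.2-fold the next highest, and 95.9% of its 196 UMIs lay here.

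Vwf and Ackr1 reached similar levels with more signal elsewhere. Vwf stood at 1063, 879, 1514 and 473 CPM against 55.4, 76.9, 111 and 77.4 in endothelial cells 1. Its next highest population was the pericytes, the contractile cells that wrap small vessels, at 89.2 CPM, and 76.7% of its UMIs lay in the 74 cells. Ackr1 stood at 304, 578, 555 and 284 CPM against 7.91, 4.16, 0 and 0, and 74.1% of its UMIs lay here. Neither gene overlapped between the 2 populations in any pair of libraries.

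Ackr1 UMIs outside the population came with those of a neighbouring gene. The gene models of Ackr1 and Cadm3, a cell adhesion gene of the nervous system, lie on the same strand and share 493 bases in GENCODE vM21 and 1612 bases in RefSeq. Nerve cells 1 had 24 Ackr1 and 126 Cadm3 UMIs, nerve cells 2 had 25 and 151, and tendon fibroblasts 2 had 47 and 176. The ratio of Ackr1 to Cadm3 UMIs was thus 0.190, 0.166 and 0.267 in these populations, and 0.231 in bursal fibroblasts. In endothelial cells 2 it was 2.36, from 354 and 150 UMIs. There 38 cells had both genes, 20 only Ackr1 and 4 only Cadm3. The annotation the authors counted with is not given in the sources used here, so the split of reads between these 2 genes is uncertain and was not tested. Cadm3 is itself among the genes most in excess below.

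**Figure D1:**
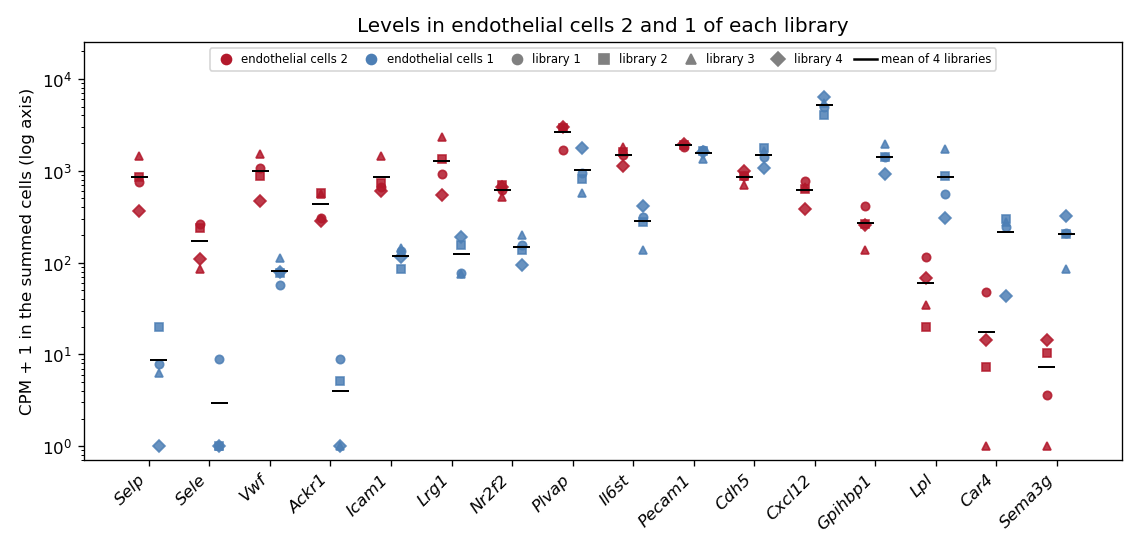
Levels of 16 genes in endothelial cells 2 (red) and endothelial cells 1 (blue), as CPM + 1 on a log axis, with 1 symbol per library and a bar for the mean of 4 libraries. Selp, Sele, Vwf and Ackr1 of endothelial cells 2 lie above every library of endothelial cells 1, Pecam1 is close between them, and Cxcl12, Gpihbp1, Lpl and Sema3g lie below.

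The 4 genes did not mark every cell. Of the 74 cells, 31 had UMIs of all 4 genes, 25 of 3, 14 of 2, 3 of 1 and 1 of none. A UMI of Selp was found in 81.1% of cells, of Sele in 58.1%, of Vwf in 93.2% and of Ackr1 in 78.4%. Since detection depends on depth, each cell was also thinned to 2400 UMIs, which left out 5 shallower cells here, 14 of endothelial cells 1 and 12 of tendon fibroblasts 1. In the 69 thinned cells the shares were 62.3% for Selp, 36.2% for Sele, 78.3% for Vwf and 52.2% for Ackr1. The background was read in tendon fibroblasts 1 (median 8824 UMIs), where 0 of 161 thinned cells had a UMI of any of the 4 genes, which allows a share of up to 1.86% each. In 176 thinned endothelial cells 1 the shares were 1.70%, 0.568% and 15.3% for Selp, Sele and Vwf, and 0 for Ackr1, which allows up to 1.70%. Of these shares in endothelial cells 1, that of Vwf stood well above the background. By library the thinned share was 56.0% to 77.8% for Selp and 22.2% to 42.9% for Sele.

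**Figure D2:**
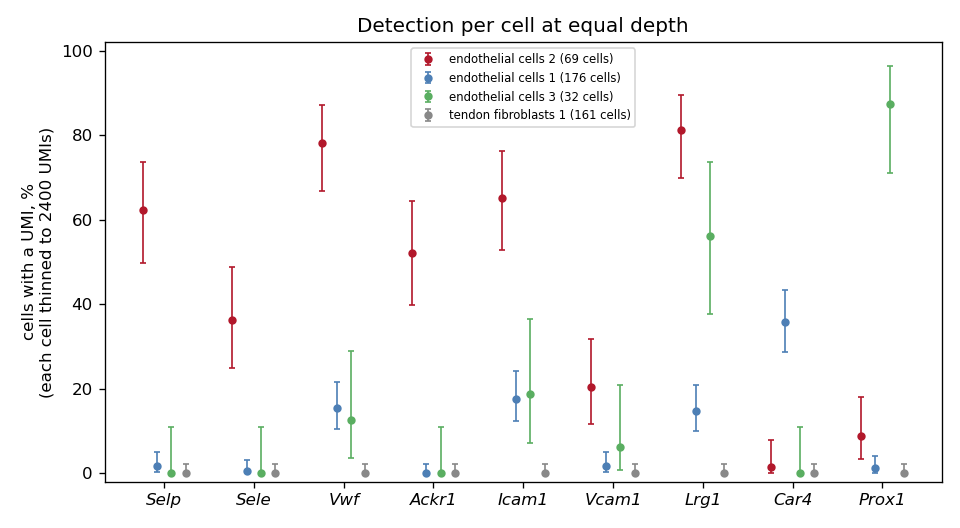
Share of cells with a UMI of each gene after thinning to 2400 UMIs per cell, in percent, with exact 95% binomial intervals that cover counting error only, for 69, 176, 32 and 161 cells of 4 populations. Selp, Sele, Ackr1 and Vcam1 of endothelial cells 2 stand above the other 3 populations (for Vcam1 with intervals that overlap endothelial cells 3), Car4 stands highest in endothelial cells 1 and Prox1 in endothelial cells 3.

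Against the sum of all other cells, 622 of 8385 genes (7.42%) had a fitted change of at least 2-fold higher and 897 (10.7%) lower. Each of these genes also had the same direction, of any size, in 4 of 4 libraries, and in all 18.1% of genes passed. A stricter set took each of the 12 other populations in turn: 43 of 1783 genes with 100 or more CPM were at least 2-fold above every one of them. After Selp, Sele and Vwf came Spint2, a membrane inhibitor of serine proteases, at 161 ± 51.5 CPM (SD, n = 4) and 6.40-fold the next population. Enpp6, a choline phosphodiesterase, followed at 122 ± 28.6 CPM and 5.62-fold, then Tmem252 at 202 ± 151 CPM and 5.54-fold. Myrip, which links Rab27 on secretory granules to myosin and actin, stood at 154 ± 57.5 CPM and 5.24-fold. Icam1, the ligand of leukocyte integrins, stood at 853 ± 388 CPM and 4.61-fold, and Pbld1 at 161 ± 156 CPM and 4.86-fold. Pbld1 was uneven, with 18.3 and 37.7 CPM in libraries 1 and 2 and 320.2 and 270.1 in libraries 3 and 4, and it overlapped endothelial cells 1.

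The other genes in this set of 43 included cytokine and hormone receptors and prostaglandin genes. Il1r1, the interleukin-1 receptor, had 191 ± 64.2 CPM, and Tnfrsf1a, a tumour necrosis factor receptor, 421 ± 104. Lifr, the receptor of leukaemia inhibitory factor, had 614 ± 70.1 CPM. Insr, the insulin receptor, had 259 ± 113 CPM and was 4.25-fold the next population. Ptgs1, a prostaglandin synthase, had 422 ± 109 CPM, and Slco2a1, a prostaglandin transporter, 657 ± 103. Ehd4, an endocytic trafficking protein, was among the most abundant at 1693 ± 168 CPM and 3.01-fold. Endothelial cells 1 had 62 such genes and pericytes 112 by the same rule. Since the population was formed from these counts, the ratios describe it and have no test.

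**Figure D3:**
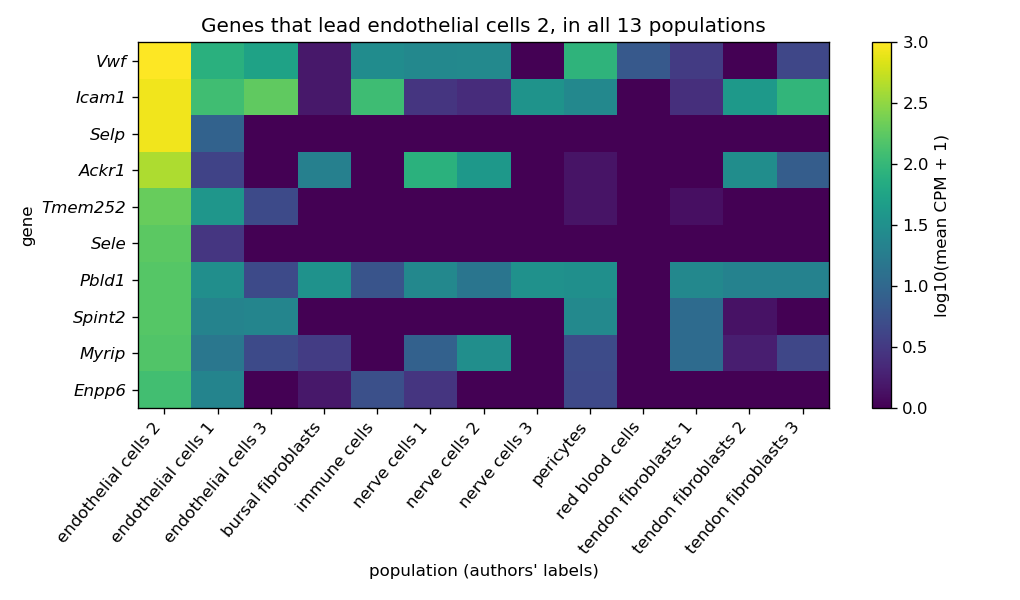
Mean level over libraries of the 10 genes with the largest ratio of endothelial cells 2 to the next population, as log10(CPM + 1), in all 13 populations. Selp and Sele are near 0 outside endothelial cells 2, whereas Vwf, Icam1 and Ackr1 show lower levels in several other populations, for Ackr1 in nerve cells 1 at 81.4 CPM.

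Compared with endothelial cells 1 alone, 248 of 5126 genes (4.84%) were at least 2-fold higher with the same direction in 4 of 4 libraries, and 263 (5.13%) were lower. In all, 9.97% of genes passed. The fit was made with edgeR on UMI sums per library, with the library as a block, and its fold changes are given with standard errors and no p, because the authors drew both populations from the same counts. The median fitted log2 change over all genes was -0.02. Library values did not overlap, with endothelial cells 2 above, for 8.45% of genes, and below for 11.2%.

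The largest fitted excess was that of Fgl2, a fibrinogen-like protein, at 283, 333, 286 and 149 CPM against 3.96, 2.08, 0 and 0. Its log2 change was 6.68 ± 0.37 (SE). Nt5e (CD73), which makes adenosine at the cell surface, stood at 196, 160, 454 and 243 CPM against 2.97, 0, 0 and 3.22, a log2 change of 6.62 ± 0.39. Lbp, which binds bacterial lipopolysaccharide, stood at 243, 327, 538 and 324 CPM against 3.96, 0, 5.28 and 9.67. These 3 genes were near 0 in endothelial cells 1, but none led over every population. Fgl2 was highest in nerve cells 3 at 3472 CPM, Lbp in bursal fibroblasts at 1797 and Nt5e in tendon fibroblasts 1 at 406.

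Of the 15 genes most in excess, the others besides the 4 markers were Cadm3, Pgm5, Pdia5, Bgn, Lgals3, Igfbp4, Amigo2 and Ctnnal1. Bgn, the proteoglycan biglycan, had 395 ± 93.4 CPM against 30.7 ± 16.4. Igfbp4, a binding protein of insulin-like growth factors, had 532 ± 103 CPM against 48.8 ± 30.9, and Lgals3, a galactose-binding lectin, 322 ± 65.9 against 25.6 ± 11.8. Pgm5 and Tmem252 are neighbours, with 782 bases between the ends of their gene models in GENCODE vM21. Of these genes Pdia5, a disulfide isomerase, and Amigo2, an adhesion protein, were highest here among all populations. Fgl2, Cadm3 and Amigo2 overlap genes on the other strand, and whether counting used strand is not stated.

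In the other direction, Gm12002 and Slc26a10 had 0 UMIs in the 74 cells, against 252 and 203 UMIs in endothelial cells 1. With a floor of 3 UMIs over the 74 cells, this is at least 35.2-fold lower for Gm12002 and at least 28.3-fold lower for Slc26a10. Both overlap genes on the other strand. Sema3g, a semaphorin of arterial endothelium, stood at 2.62, 9.42, 0 and 13.5 CPM against 212, 206, 84.4 and 322. Lpl, lipoprotein lipase, stood at 115, 18.8, 33.6 and 67.5 CPM against 553, 867, 1715 and 306. Btnl9, Rsad2, Sema7a, Notch4, Clic5 and Car4 completed the 10 genes with the largest deficit, with log2 changes from -4.33 to -3.26. Only Car4, the carbonic anhydrase of capillaries, overlapped between the populations, since library 4 of endothelial cells 1 had 41.9 CPM and library 1 of endothelial cells 2 had 47.1.

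Venous genes other than the 4 markers were mostly higher as well. Of 8 genes of the venous identity list with a fitted value, 5 were higher than in endothelial cells 1 and none lower, against 4.84% of all genes higher, and the list's median log2 change was 1.53. This list and those below were chosen with earlier results of these data known, so their counts only describe the population. Nr2f2 stood at 610, 694, 521 and 662 CPM against 153, 137, 201 and 93.5, with no overlap. Lrg1, a secreted leucine-rich glycoprotein of venules, stood at 921, 1347, 2304 and 540 CPM against 75.2, 154, 73.9 and 190. Plvap, which forms the diaphragms of fenestrae and caveolae, stood at 1693, 2935, 2943 and 2999 CPM against 938, 815, 565 and 1750. Plvap was higher in each library, although the highest value of endothelial cells 1 exceeded the lowest of endothelial cells 2. Nrp2 and Bgn were the other 2, and Bgn was most abundant in tendon fibroblasts 1, at 2387 CPM. Ephb4 and Aplnr, other genes with known venous expression, did not pass, with log2 changes of 0.07 ± 0.18 and -0.35 ± 0.19 (SE). Vcam1 had too few UMIs for the fit.

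Arterial and capillary genes were mostly lower. Of 10 arterial genes with a fitted value, 6 were lower and none higher (median log2 change -1.32), against 5.13% of all genes lower. They were Sema3g, Unc5b, Hey1, Sox17, Efnb2 and Jag2. Sox17, a transcription factor of arterial identity, stood at 149, 97.3, 50.5 and 108 CPM against 343, 360, 216 and 371. Gja4, an arterial gap junction gene, had 0 UMIs against 123. Of 12 capillary genes 9 were lower and 2 higher, against 5.13% of all genes lower and 4.84% higher. Gpihbp1, which anchors lipoprotein lipase on capillaries, stood at 414, 264, 135 and 257 CPM against 1415, 1422, 1932 and 928. Aqp1, a water channel, and Meox2, a homeobox factor, were the 2 that were higher. Aqp1 had 3838 ± 667 CPM (SD, n = 4), close to the 3836 of nerve cells 3, the next population.

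**Figure D4:**
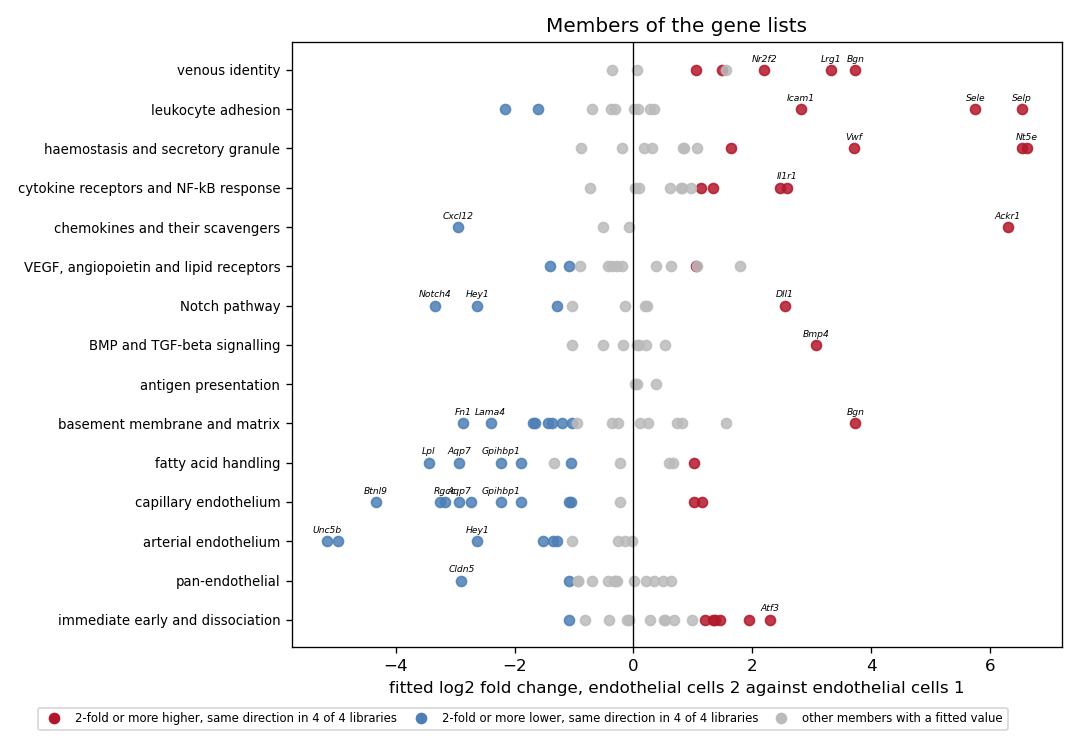
Fitted log2 fold change of endothelial cells 2 against endothelial cells 1 for the members of 15 gene lists with a fitted value, 1 point per gene, coloured by whether the change was 2-fold or more with the same direction in 4 of 4 libraries. Venous, haemostasis and cytokine-receptor genes lie mostly to the right and arterial, capillary and basement membrane genes mostly to the left.

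Leukocyte adhesion genes were split. Of 12 with a fitted value, Selp, Sele and Icam1 were higher and Jam3 and Podxl lower, with a median log2 change of 0.04. The shares of all genes were 4.84% higher and 5.13% lower. Icam1 stood at 660, 728, 1430 and 594 CPM against 133, 83.1, 143 and 113, a log2 change of 2.82 ± 0.20 (SE). Podxl, a sialomucin of the luminal surface, stood at 243, 270, 269 and 284 CPM against 622, 962, 881 and 1076. Genes of the junctions that leukocytes cross, Pecam1, Icam2, F11r and Jam2, had log2 changes of 0.34 ± 0.13, -0.32 ± 0.19, -0.37 ± 0.18 and 0.08 ± 0.16. None of these 4 passed. Selp and Sele, counted in this list, are among the markers that set the population apart. Vcam1, a second integrin ligand, stood at 91.6, 210.3, 0 and 67.5 CPM against 1.98, 10.4, 21.1 and 0, and was absent from the 11 cells of library 3.

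Genes of haemostasis and secretory granules were higher or did not pass. Of 11 with a fitted value, Vwf, Selp, Nt5e and Rab27a were higher and none lower (median log2 change 0.86), against 4.84% of all genes higher. Vwf and Selp are among the markers that set the population apart. Rab27a, the small GTPase of Weibel-Palade bodies, stood at 65.4, 72.2, 135 and 108 CPM against 29.7, 18.7, 42.2 and 25.8. Anticoagulant Thbd (thrombomodulin) did not pass, at 317 ± 62.2 CPM against 379 ± 64.1 (SD, n = 4). Nos3, which makes nitric oxide, and Edn1, which encodes endothelin, had log2 changes of 0.32 ± 0.23 and 0.19 ± 0.21 (SE).

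Of 11 genes of cytokine receptors and the NF-kB response, 4 were higher and none lower (median log2 change 0.81), against 4.84% of all genes higher. Il6st, the shared signalling chain of interleukin-6 family receptors, stood at 1473, 1595, 1816 and 1121 CPM against 313, 276, 137 and 409. Il1r1 stood at 154, 176, 286 and 149 CPM against 25.7, 27.0, 31.7 and 48.3. Tnfrsf1a and Socs3, a feedback inhibitor of cytokine signalling, were the other 2. Nfkbia, the inhibitor of NF-kB, and Nfkb1, 1 of its subunits, did not pass, with log2 changes of 0.61 ± 0.19 and 0.09 ± 0.23 (SE). Among chemokines, Cxcl12 stood at 769, 634, 673 and 378 CPM against 4888, 4015, 5415 and 6407, so every library was several-fold lower, with a log2 change of -2.95 ± 0.19. Class II antigen presentation genes were near 0, with 5 UMIs of H2-Aa, and the 3 fitted class I genes, H2-K1, H2-D1 and B2m, did not pass.

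Signalling genes differed member by member, and the counts by list, read against 4.84% of all genes higher and 5.13% lower, rest on few members. In the Notch list of 8, the receptor Notch4, the ligand Jag2 and the target Hey1 were lower. The ligand Dll1 was higher, at 194, 267, 336 and 284 CPM against 46.5, 41.6, 58.1 and 32.2. Notch1 did not pass, at 0.20 ± 0.19 (log2 change ± SE). Of 12 genes of VEGF, angiopoietin and lipid receptors, Nrp2 was higher and Kdr and Nrp1 lower. Kdr, the main VEGF receptor, stood at 529, 367, 471 and 257 CPM against 816, 887, 1013 and 989. Of 8 genes of BMP and TGF-beta signalling, the ligand Bmp4 was higher, at 160, 163, 219 and 94.6 CPM against 10.9, 18.7, 52.8 and 22.6. Library values did not overlap for Dll1, Kdr or Bmp4.

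Fatty acid and matrix genes were mostly lower or did not pass. Of 10 fatty acid genes 5 were lower, namely Cd36, Gpihbp1, Aqp7, Lpl and Tcf15, and Meox2 was higher. The fatty acid carrier Fabp4 remained among the most abundant transcripts, at 19470 ± 7173 CPM against 22794 ± 4610 (SD, n = 4). Of 17 basement membrane and matrix genes 8 were lower and Bgn was higher. Over all genes, 4.84% were higher and 5.13% lower. Col4a1, a collagen of every basement membrane, stood at 547, 553, 286 and 1135 CPM against 1741, 2492, 2138 and 1576. Fn1, fibronectin, had 17.7 ± 11.8 CPM against 180 ± 60.4.

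Pan-endothelial genes were nearer between the populations. Of 14 members none was higher and 2 were lower, Kdr and Cldn5, against 4.84% of all genes higher and 5.13% lower. Pecam1 stood at 1822, 1931, 1917 and 1959 CPM against 1680, 1642, 1335 and 1605. Cdh5, the cadherin of endothelial junctions, stood at 874, 876, 706 and 986 CPM against 1400, 1771, 1647 and 1076, a log2 change of -0.69 ± 0.17. Cldn5, a tight junction protein, stood at 105, 50.2, 0 and 0 CPM against 495, 447, 333 and 461. Transcripts that respond to tissue dissociation also differed: of 16 immediate early genes 6 were higher and 1 lower. Atf3 stood at 667, 279, 656 and 378 CPM against 180, 56.1, 73.9 and 90.2. Socs3, counted above, belongs to this list too, and the list's part in the results was not tested. Cell cycle genes were near 0, with 3 UMIs of Mki67.

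Markers of other cell types were low with 1 exception. The 7 lymphatic genes summed to 21.98 to 50.5 CPM per library, against 9444 in endothelial cells 3. The 9 macrophage genes summed to 0 to 31.4 CPM with 5 of 9 at 0, and the 6 platelet genes to 0 to 41.9 with 4 of 6 at 0. Schwann cell genes summed to 0 to 81.6 CPM and tendon fibroblast genes to 176 to 656. The 10 pericyte and smooth muscle genes summed to 1416 to 2810 CPM, against 454 to 1421 in endothelial cells 1 and 23318 in pericytes. Most of this was Tagln, an actin-binding protein, at 1327, 1299.7, 1446 and 2729 CPM against 395, 254, 222 and 384. Of the other genes of the list, Acta2 stood at 48.4 ± 45.1 CPM against 31.6 ± 27.2 and Myh11 at 53.0 ± 81.7 against 16.3 ± 11.5, and Rgs5, Pdgfrb and Cspg4 at 258 ± 367, 19.9 ± 35.7 and 4.99 ± 8.02 CPM, against 351 ± 277, 42.0 ± 41.1 and 6.30 ± 6.89 in endothelial cells 1. In library 1 Rgs5 reached 806 CPM. By the marker class tested below, Tagln was the 1 of 2 tested genes of this list that rose, against 382 of 5202 over all genes. Without library 4, 3 of 4 rose, against 546 of 6049 over all genes. In libraries 1 and 2 only, 5 of 8 rose, against 507 of 6739. The list's part in the results was not tested. There was 1 cell with 1% or more of its UMIs from this list. Haemoglobin and other red cell genes summed to 67.3 to 459 CPM, against 195 to 7371 in endothelial cells 1. The highest of those values came from library 4.

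Endothelial cells 3 carried lymphatic genes, so the 2 populations were set side by side in library 1, which held 30 and 26 of their cells. With 1 library there is no test, and exact Poisson intervals cover counting error only. Selp, Sele and Ackr1 had 0 UMIs in endothelial cells 3, which allows up to 11.1 CPM. Venous genes that lymphatic endothelium also uses were closer. Nr2f2 had 610 CPM (95% interval 534 to 693) against 511 (429 to 604), and Nrp2 448 (383 to 520) against 407 (335 to 491). Lrg1 had 921 CPM (828 to 1023) against 467 (389 to 556). The transcription factor Prox1, which sets lymphatic identity, had 26.2 CPM (12.6 to 48.1) against 1489 (1347 to 1642). Prox1 was nevertheless found in 12 of 74 endothelial cells 2, and its level by library, 26.2, 12.6, 50.5 and 27.0 CPM, did not overlap that of endothelial cells 1, at 7.91, 0, 0 and 3.22.

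A tested comparison split the 264 cells of endothelial populations 1 and 2 by the 4 markers instead of the label. Cells with 3 or more UMIs of Selp, Sele, Vwf and Ackr1 together were positive, and these 4 genes were left out of the test. The cutoff was on raw UMIs without scaling for depth, so deeper cells reach it more easily. The part of depth in the class was not tested. The positive class held 69 of the 74 endothelial cells 2 and 23 of the 190 endothelial cells 1, so it was nearly the label itself and is a range of marker counts, not a cell type. With edgeR's quasi-likelihood test and Benjamini-Hochberg adjustment, 382 of 5202 genes (7.34%) were higher in positive cells and 304 (5.84%) lower at an adjusted p of 0.05, 13.2% in all. Of these 686 genes, 600 had the same direction in 4 of 4 libraries. Because the authors formed the populations on the same counts, the adjusted p-values describe how steady the differences were over the libraries and give no independent support for the label. Of the genes higher by label 83.1% were also higher by marker class, which was 53.9% of the latter. Of the lower genes it was 71.1% and 61.5%.

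Of the genes tested by marker class, the 5 with the largest rise were Cytl1, Fgl2, Lbp, Cadm3 and Nt5e, with log2 changes from 6.69 ± 0.60 to 4.92 ± 0.39 (SE). All 5 rose in 4 of 4 libraries, Fgl2 with an edgeR adjusted p of 2.3e-07 and Cytl1 with one of 1.0e-06. Cadm3 shares bases with Ackr1, 1 of the markers. With Ackr1 left out of the markers the log2 change of Cadm3 was 4.71 ± 0.41. The positive class then held 38, 30, 11 and 11 cells by library, against 39, 30, 12 and 11 with all 4 markers. Being nearly the same class, it cannot separate Cadm3 from Ackr1, and the part of the shared bases in this rise was not tested. With Vwf left out of the markers instead, the log2 change of Cytl1 was 1.69 ± 0.54 (edgeR adjusted p = 0.033), that of Fgl2 3.94 ± 0.34 and that of Nt5e 3.93 ± 0.31. Cytl1, a small secreted cytokine-like protein, differed between the label and the class. It stood at 126, 72.2, 50.5 and 0 CPM in endothelial cells 2 against 0, 0, 5.28 and 106 in endothelial cells 1, so library 4 was reversed by label, while by class it was higher in 4 of 4. It was most abundant in tendon fibroblasts 1 at 393 CPM. The 5 with the largest fall were Itm2a, Btnl9, Car4, Hba-a2 and Slc26a10. Hba-a2, a haemoglobin gene with a near-identical copy (Hba-a1), lost its call without library 4 (edgeR adjusted p = 0.15), where endothelial cells 1 had 1560 CPM against 26.7 to 74.8 in the other libraries. Slc26a10 lost its call without library 2 (edgeR adjusted p = 0.078).

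By list, 6 of 8 venous identity genes rose with the class and none fell, 5 of 11 cytokine receptor and NF-kB genes rose and none fell, and 5 of 10 haemostasis genes rose and none fell. Over all genes, 7.34% rose and 5.84% fell. As above, the calls and adjusted p-values here describe steadiness over the libraries and give no independent support for the label. Irf1, an interferon-regulated factor, was added to the cytokine genes at a log2 change of 0.67 ± 0.19 and an edgeR adjusted p of 0.026, and lost its call without library 1, 2 or 3. Of the capillary genes 9 of 12 fell, and 8 to 10 of 12 did so when any 1 library was left out. Of the arterial genes 6 of 10 fell. That count changed with the library left out. It was 3 of 9 without library 1 and 1 of 10 without library 2. It was 3 of 12 without library 3, 7 of 11 without library 4 and 3 of 10 without the library block. Calls over all genes changed too, from 304 of 5202 genes lower in the main fit. Without libraries 1, 2, 3 and 4 in turn, 154 of 4007, 98 of 3932, 180 of 5997 and 411 of 6049 fell. Without the library block 262 of 5202 fell. Without library 2, 4 of 8 venous, 3 of 10 cytokine and 2 of 8 haemostasis genes rose and none fell, and without library 1 haemostasis had 3 of 6. Over all genes, 142 of 3932 rose without library 2 and 162 of 4007 without library 1, against 382 of 5202 in the main fit. With Vwf left out of the markers, 4 of 10 haemostasis genes rose, against 469 of 5267 over all genes. Plvap missed the threshold without library 2 (edgeR adjusted p = 0.070). Among leukocyte adhesion genes other than the markers, Icam1 rose by 2.63 ± 0.22 on the log2 scale (edgeR adjusted p = 8.5e-07) while Jam3, Podxl and Cdh5 fell. Cdh5 passed at an edgeR adjusted p of 0.028 and lost its call without library 1, 2 or 3. Without library 2 none of the list's 10 genes fell, with edgeR adjusted p-values of 0.124 for Jam3 and 0.135 for Podxl. Jam3 also lost its call without library 3 (edgeR adjusted p = 0.088), and Podxl without library 1 (0.085). In all cells summed here, fewer expressing cells and less RNA per cell cannot be told apart.

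The 23 marker-positive endothelial cells 1 differed from endothelial cells 2 in other genes. Their marker UMIs were mostly Vwf, 91 UMIs, against 15 of Selp, 7 of Sele and 5 of Ackr1. Their Lrg1 level was 104 CPM, against 114 in the 167 other endothelial cells 1 and a mean of 1278 in endothelial cells 2. Sema3g was 217 CPM against 215 in the other endothelial cells 1 and 6.39 in endothelial cells 2. Car4 was 62.0 CPM against 265, and Il6st 518 against 255. No test was made, since these cells were picked by their marker counts. Those counts were not scaled for depth, and the part of depth in these differences was not tested.

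Within the population, Selp and Sele moved together from cell to cell. Spearman's rho between their shares of UMIs was 0.479 over the 74 cells, and -0.110 to 0.141 for the other 5 pairs of markers. These are descriptions over cells that share libraries and differ in depth. Of the 43 cells with a Sele UMI 38 also had Selp, and of the 31 without Sele 22 had it. Cells with Sele had 1012 Selp CPM and those without 370, and the former were higher in 4 of 4 libraries. Ackr1 was likewise higher in cells with Sele in 4 of 4 libraries (477 against 315 CPM), whereas Vwf was higher in 1 of 4 (906 against 1111 CPM). The cells with Sele were deeper, with a median of 10194 UMIs against 5974, and the part of depth in these differences was not tested.

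**Figure D5:**
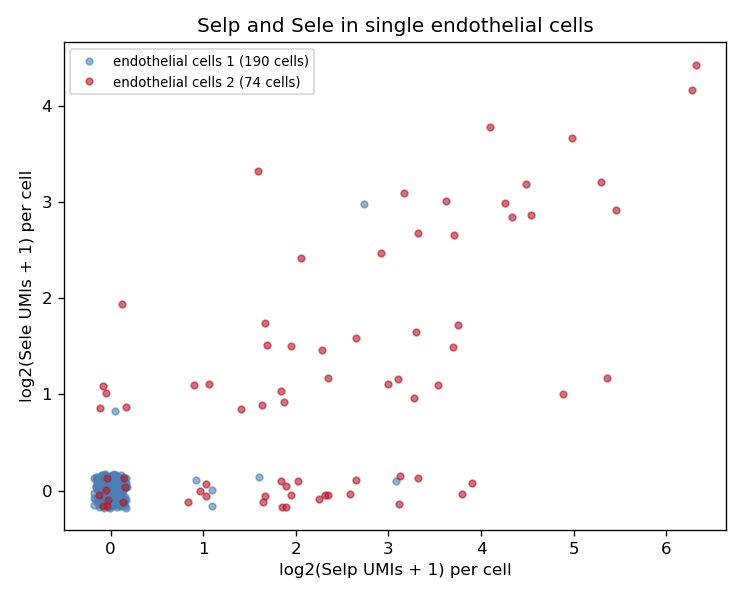
UMIs of Selp and Sele per cell, as log2(UMIs + 1) with a small random shift so that points do not cover each other, for 74 endothelial cells 2 (red) and 190 endothelial cells 1 (blue). Cells with many Sele UMIs are mostly those with many Selp UMIs, and 22 cells of endothelial cells 2 have Selp without Sele.

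Cells that carried Vcam1 differed in another way. The 29 cells with a Vcam1 UMI came from libraries 1, 2 and 4, and had 26180 Fabp4 CPM against 11654 in the 45 cells without. Fabp4, Gpihbp1 (460 against 170 CPM) and Car4 (45.5 against 2.53 CPM, from 21 UMIs in 5 cells) were higher in them in 3 of 3 libraries, while Il6st was lower in 3 of 3 (1312 against 1737 CPM). All 11 cells of library 3 fell in the group without Vcam1, and the median depth was 10227 against 7321 UMIs. Cxcl12, which was also much lower here than in endothelial cells 1, stood at 654 against 701 CPM and was higher in them in 1 of 3 libraries. These genes were chosen after their values were seen, and the part of depth was not tested. Across 346 genes with enough UMIs in the thinned cells, the median ratio of variance to mean was 1.51. Among the highest were Gm42418 at 83.5, Fabp4 at 24.2, Fos at 5.68, Iigp1, an interferon-induced GTPase, at 5.43 and Selp at 4.29. Selp ranged from 0 to 14 UMIs per thinned cell and was at 0 in 26 of 69.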

How the data were processed

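Single-cell RNA was measured in 4 libraries. The authors deposited raw UMI counts per gene and cell with a population name per cell; those counts were used here. The submitters' processing notes name Cell Ranger, Seurat 2.3.4, R 3.5.2 and mm10, with no role or order. The deposited cells have at least 1010 UMIs; no cell was removed and no doublets were called. Of 15750 gene entries 4 repeat a name and were dropped, with 0.0186% of UMIs. Depth was 1375111 to 5603366 UMIs per library.

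UMIs were summed per library and population (5 or more cells) and fitted with edgeR 4.0.16 in R 4.3.3 (limma 3.58.1, TMM, filterByExpr, library as block, since both sums come from the same library). DESeq2 1.42.0 was an alternative. Label contrasts have no p, and a gene passed with a fitted change of 2-fold or more and the same direction, of any size, in 4 libraries. The marker class was tested with Benjamini-Hochberg adjustment at 0.05. Intervals are exact (Clopper-Pearson or Poisson, 95%) and, like the floor of 3 counts, cover counting error only. Shares were also computed after thinning to 2400 UMIs, with 114 cells left out. The test was tried on simulated data with known changes.

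Named genes are the 15 highest and 10 lowest against endothelial cells 1, the 10 with the largest ratio to the next population, the 5 highest and 5 lowest by marker class (100 or more CPM on the higher side), and members of 24 lists with 230 genes, of which 2 are not in the table used here. Others among the 43 genes above every population, and the cell subsets by Sele and Vcam1, were chosen after their values were seen. The members and lists were chosen with earlier results of these data known. Promoters and positions come from RefSeq (GRCm38.p6).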

Additional observations from a re-analysis of the deposited data

Results flagged for a closer look

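Of 61 values tested for a library far from the others, 1 stood out: Icam1 in endothelial cells 2 was 1430 CPM in library 3, while the nearest library had 728 and the lowest 594. Chance flags about 1 in 20 such groups. Library 3 held 11 of the cells, at a median of 5280 UMIs.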

How the results depend on the processing

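Scaling by DESeq2's size factors instead of TMM gave 506, 1526 and 684 genes for the 3 comparisons below. Against endothelial cells 1, 511 genes passed 2-fold. Without a filter on low counts 1189 passed (423 higher, 766 lower, against 248 and 263). Thinning to 2400 UMIs left 162 of 1055 fitted genes, 4-fold left 157, and libraries 1 and 2 alone, a setting chosen after seeing the data, gave 811. Leaving out each library in turn gave 521 to 652. Against all other cells, 1519 genes passed. This was 2579 without the filter (617 higher), 452 after thinning (238 higher, 214 lower, against 622 and 897), 681 at 4-fold and 1683 to 1944 with each library left out.

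By marker class 686 genes were called, 203 of 1079 after thinning and 338 with DESeq2's Wald test. In the thinned fit the classes were still those set on unthinned UMIs. Leaving out each library in turn gave 240 (without library 2) to 957 (without library 4), and 316 without library 1. Without the library block the 3 counts were 505, 1539 and 590, so the block, which pairs sums from the same library, changed none by over 1.5 times. Hba-a2 lost its call in 3 settings and Slc26a10 in 2. Of the genes named by rank and followed over settings, none changed direction. The share of these cells was 5.60% to 7.56% with each library left out. Leaving out every cell with 3 or more UMIs of other-type markers kept 10 cells and could not be fitted. Depth limits the low genes: at 8 to 30 cells per library, genes under the filter have no fitted value.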
